A study of Mus musculus with 21 samples.

Results

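The miR-17-92 and miR-106b-25 clusters are short stretches of the mouse genome from which several miRNAs are cut out of a common transcript. The 9 members described here are the main mature strands of their hairpins. MiR-17-5p, miR-18a-5p, miR-19a-3p, miR-19b-3p, miR-20a-5p and miR-92a-3p come from miR-17-92, and miR-106b-5p, miR-93-5p and miR-25-3p come from miR-106b-25. They were chosen by name and make up 9 of the 1909 miRNA names counted in virgin females and 9 of the 1841 names counted in females of a breeding trial. A miRNA pairs through its seed, the bases near its 5′ end, with sites in mRNAs and lowers their output, so miRNAs that share a seed share many targets. Both clusters are known for their link to cell proliferation: miR-17-92 is activated by MYC and amplified in some lymphomas, and miR-106b-25 lies within *Mcm7*, a gene of the replicative helicase that E2F factors activate. Members with the miR-17 seed repress inhibitors of the cell cycle.

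Small RNAs of whole pituitary were sequenced from female C57BL/6J mice that carried miR-200a/b-resistant alleles of *Zeb1*, whose target sites for these miRNAs no longer pair with them. The study compared wild-type mice (WT, Zeb1_WT in the labels), heterozygotes (Zeb1_200H, *Zeb1 200H* below) and homozygotes (Zeb1_200M, *Zeb1 200M* below), each library coming from a different mouse. The alleles were carried in every tissue, so a difference in the pituitary need not start in pituitary cells. Females of both cohorts were staged for proestrus. Virgin females were 8 to 12 weeks old, with WT replicates 1, 2 and 4, 4 *Zeb1 200H* and 4 *Zeb1 200M* libraries. Females of the breeding trial were 28 to 36 weeks old, and their libraries were WT replicates 1 to 4, 3 of *Zeb1 200H* (numbered 1, 3, 4) and 3 of *Zeb1 200M* (numbered 1 to 3). The virgin libraries held 3816917, 10806313 and 9029142 counted reads in WT replicates 1, 2 and 4, from 8551806 to 10266419 in *Zeb1 200H* and from 8502878 to 10515664 in *Zeb1 200M*. The breeding trial libraries, made from less RNA with yeast carrier RNA added, held from 60037 to 191650 counted reads. Levels are given as CPM, counts scaled by all counted reads of the library. In bulk tissue, fewer cells of a type and less RNA per cell cannot be told apart.

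The mature sequences are shown because the members are compared by seed family, and because single bases separate some of them. They run 5′ to 3′, and capitals mark the seed, bases 2 to 8. All 9 members had a mature sequence in RefSeq (GRCm38.p6), as did 1620 of the 1909 and 1573 of the 1841 names. The miR-17 family joins both clusters:
miR-17-5p: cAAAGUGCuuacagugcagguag
miR-20a-5p: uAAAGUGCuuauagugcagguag
miR-106b-5p: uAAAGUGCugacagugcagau
miR-93-5p: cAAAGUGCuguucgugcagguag
The miR-18 family has a seed that is close to that of miR-17:
miR-18a-5p: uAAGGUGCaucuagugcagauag
The miR-19 family comes from miR-17-92:
miR-19a-3p: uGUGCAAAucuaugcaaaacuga
miR-19b-3p: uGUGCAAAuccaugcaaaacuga
The miR-25/92 family again joins both clusters:
miR-92a-3p: uAUUGCACuugucccggccug
miR-25-3p: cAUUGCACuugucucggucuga

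With positions counted from 1 at the 5′ end, the seed of miR-18a-5p differs from that of miR-17-5p by A4G, and miR-19b-3p differs from miR-19a-3p by U11C, outside the seed. MiR-20a-5p differs from miR-17-5p by C1U and C12U, also outside the seed. The authors assigned a read to a miRNA by its first 19 bases (virgin, with no mismatch allowed) or 18 bases (breeding trial). Over these bases, 0 RefSeq mature sequences that differ from a member's own matched it exactly, at either length. Names whose whole sequence is identical to a member's were not looked for. The nearest other miRNA differed at 1 base from miR-17-5p, miR-18a-5p, miR-19a-3p, miR-19b-3p and miR-92a-3p, at 2 bases from miR-20a-5p and miR-106b-5p, and at 3 bases from miR-93-5p and miR-25-3p. A sequencing error could therefore move a read between miR-19a-3p and miR-19b-3p, and this was not tested. In GC content the members ranged from 34.8% for miR-19a-3p, with 39.1% for miR-19b-3p and miR-20a-5p, to 57.1% for miR-92a-3p.

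In GRCm38, the 6 hairpins of miR-17-92 lie on the plus strand of chromosome 14, from 115043671 to 115044506, over 836 bp in an exon of the noncoding RNA *Mir17hg*. The 3 hairpins of miR-106b-25 lie on the minus strand of chromosome 5, from 138165321 to 138165818, over 498 bp within *Mcm7*. *Mir25* (ENSMUSG00000065394) and *Mir93* (ENSMUSG00000065527) overlap annotated *Mcm7* exons, and *Mir106b* (ENSMUSG00000065514) lies in an intron. A relative of both, miR-106a-363, has 6 hairpins over 875 bp on the minus strand of chromosome X, from 52741693 to 52742567. It holds second genes for the mature miR-19b-3p and miR-92a-3p, so counts of those miRNAs can come from either chromosome.

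**Figure D1:**
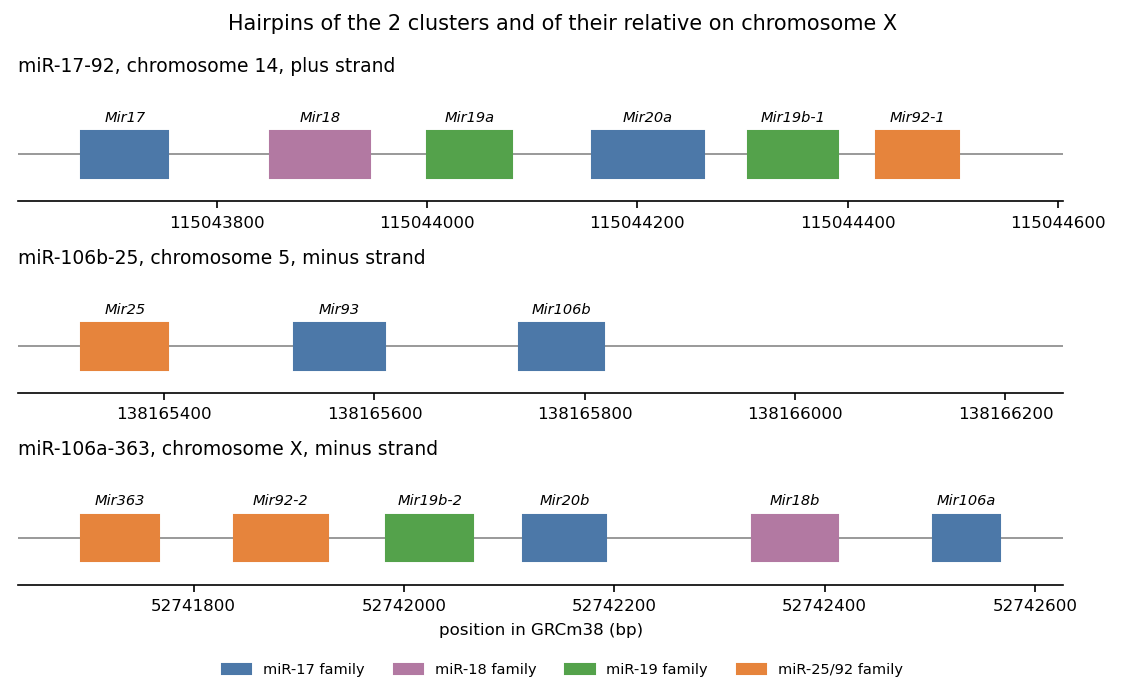
Map of the hairpins of miR-17-92, miR-106b-25 and their relative miR-106a-363, drawn at a common scale with the position in GRCm38 in bp on each axis. Boxes are hairpins, coloured by the seed family of their main strand. The miR-17-92 hairpins cover 836 bp, those of miR-106b-25 cover 498 bp and those of miR-106a-363 cover 875 bp.

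One library stood apart in these miRNAs. In virgin WT replicate 1 the 9 members together took 0.238% of counted reads, against 0.546% to 0.706% in the other 10 virgin libraries. MiR-19a-3p reached 23.1 CPM in that library and a mean of 279.4 CPM in WT replicates 2 and 4, a 12.1-fold difference. MiR-19b-3p was 8.24-fold lower there, and miR-20a-5p was 5.10-fold lower. The shortfall was uneven within the clusters and within a seed family. Among members with the miR-17 seed it was 3.43-fold for miR-17-5p, 2.99-fold for miR-93-5p and 2.11-fold for miR-106b-5p, and in the miR-25/92 family it was 1.91-fold for miR-92a-3p and 1.13-fold for miR-25-3p. MiR-18a-5p, cut from the same transcript as miR-19a-3p, was 1.10-fold lower. For the 474 miRNAs averaging 50 or more counts in WT, the median log2 ratio of replicate 1 to the mean of replicates 2 and 4 was −0.71. Only 4 and 8 of these miRNAs had a lower ratio than miR-19a-3p and miR-19b-3p, whereas 323 and 316 had a lower ratio than miR-18a-5p and miR-25-3p. The TMM factor of the library, which rescales its depth in the fits, was 0.616, against 0.943 to 1.12 in the other virgin libraries. Calls of the members and of the cell type lists in the virgin comparisons with WT are given below with and without this library, and what set it apart was not tested.

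MiR-19b-3p was the most abundant member in both cohorts, and the order of the members below it was much alike. Over the 11 virgin libraries it averaged 1902 ± 587 CPM (SD, n = 11), 71st of 1388 miRNAs with a count. MiR-106b-5p followed at 1121 ± 203 CPM and miR-25-3p at 914 ± 97.2 CPM. Next came miR-92a-3p at 587 ± 101 CPM, miR-93-5p at 362 ± 84.3 CPM and miR-17-5p at 247 ± 62.4 CPM. The least abundant were miR-19a-3p at 209 ± 69.0 CPM, miR-20a-5p at 191 ± 52.9 CPM and miR-18a-5p at 75.0 ± 9.07 CPM. From miR-25-3p down to miR-17-5p, each member exceeded the next in 11 of 11 libraries. MiR-19b-3p exceeded miR-106b-5p, miR-106b-5p exceeded miR-25-3p, and miR-20a-5p exceeded miR-18a-5p in 10 of 11, with WT replicate 1 the exception each time. MiR-17-5p exceeded miR-19a-3p in 10 of 11 libraries, with WT replicate 2 the exception, and miR-19a-3p exceeded miR-20a-5p in 8 of 11. Without WT replicate 1, miR-19b-3p averaged 2061 ± 269 CPM (SD, n = 10) and miR-19a-3p averaged 227 ± 32.9 CPM.

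Over the breeding trial libraries, miR-19b-3p averaged 1641 ± 350 CPM (SD, n = 10), 78th of 743 miRNAs with a count, and exceeded miR-106b-5p, at 1269 ± 152 CPM, in 9 of 10 libraries. MiR-25-3p averaged 917 ± 132 CPM and lay below miR-106b-5p and above miR-92a-3p, at 483 ± 84.6 CPM, in each of the 10 libraries. MiR-92a-3p exceeded miR-93-5p, at 437 ± 94.2 CPM, in 5 of 10 libraries, and miR-20a-5p, at 264 ± 60.3 CPM, exceeded miR-17-5p, at 247 ± 17.0 CPM, in 5 of 10. MiR-19a-3p averaged 148 ± 62.3 CPM and miR-18a-5p averaged 62.3 ± 33.5 CPM. At this depth miR-18a-5p rested on 1 to 15 counts per library and miR-19a-3p on 4 to 32. In *Zeb1 200H* replicate 3, the shallowest library, 1 count of miR-18a-5p gave 16.7 CPM, with a 95% Wilson interval of 2.94 to 94.4 CPM. Such intervals, and the 3 counts that a count of 0 allows, cover counting error only.

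**Figure D2:**
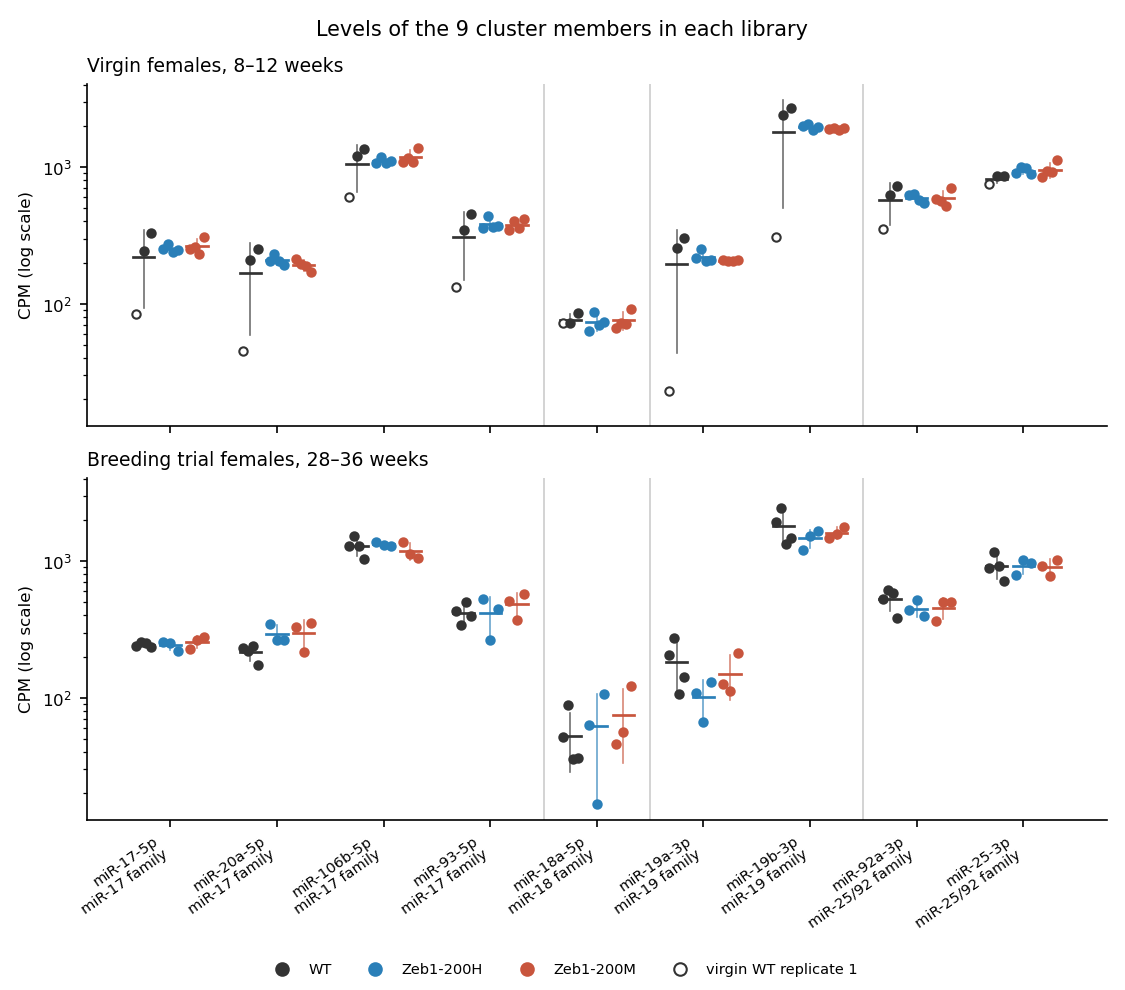
Level of each member in each library, in CPM on a log axis, with virgin females above and breeding trial females below. Points are libraries (WT dark, Zeb1_200H blue, Zeb1_200M red, virgin WT replicate 1 open), horizontal bars are group means and vertical lines are 1 SD on either side. The open points lie lowest for 8 of the 9 members, with miR-19a-3p at 23.1 CPM, and miR-18a-5p is the exception.

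Within a cluster, members from a common transcript were present in unequal amounts. Virgin WT replicate 1 apart, the share of the leading member was much alike from group to group. MiR-19b-3p made up 62.1% ± 1.34 of the miR-17-92 counts in virgin WT replicates 2 and 4 (SD, n = 2), 59.4% ± 1.17 in virgin *Zeb1 200H* (SD, n = 4) and 59.0% ± 1.78 in virgin *Zeb1 200M* (SD, n = 4). In virgin WT replicate 1 the share was 34.8%, and miR-92a-3p, at 40.0%, took the largest share. Among breeding trial females, miR-19b-3p made up 58.9% ± 4.56 in WT (SD, n = 4), 55.8% ± 5.12 in *Zeb1 200H* (SD, n = 3) and 56.7% ± 1.61 in *Zeb1 200M* (SD, n = 3). Smaller shares of miR-17-92 were less alike. MiR-20a-5p made up 5.60% in virgin WT replicates 2 and 4 and 11.3% in breeding trial *Zeb1 200H*, and miR-19a-3p made up 6.82% and 3.90%. MiR-106b-5p made up the largest share of miR-106b-25, from 45.6% ± 0.988 in virgin *Zeb1 200H* (SD, n = 4) to 50.5% ± 0.789 in virgin WT replicates 2 and 4 (SD, n = 2). In virgin WT replicate 1, miR-25-3p led that cluster with 50.5%, and miR-106b-5p made up 40.6%. Part of such unevenness can come from ligation and amplification, which differ between sequences, and this was not tested.

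By seed, the miR-19 members summed to 2111 ± 655 CPM over the virgin libraries (SD, n = 11), the miR-17 members to 1922 ± 391 CPM, the miR-25/92 members to 1501 ± 174 CPM and miR-18a-5p alone to 75.0 ± 9.07 CPM. For the breeding trial libraries the miR-17 members led with 2217 ± 199 CPM (SD, n = 10), ahead of miR-19 at 1789 ± 406 CPM and miR-25/92 at 1400 ± 191 CPM. The 4 miR-17 members held 98.0% to 99.1% of the counts of the 7 names with that seed, as group means. MiR-19a-3p and miR-19b-3p were the only names with the miR-19 seed. In the miR-25/92 family, by contrast, the 2 members held 55.5% to 64.9%, and most of the rest was miR-92b-3p, which belongs to neither cluster.

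The other strand of each hairpin, usually degraded after the duplex is unwound, was counted much less often, except at *Mir17*. MiR-17-3p took 20.2% of the counts of both *Mir17* strands over the 11 virgin libraries, with 18.1% to 24.3% in single libraries. MiR-20a-3p took 7.22%, miR-93-3p 6.07%, miR-106b-3p 5.90% and miR-18a-3p 3.58% of the counts of their hairpins. The other strands of miR-19a-3p, miR-19b-3p, miR-92a-3p and miR-25-3p took at most 0.283%. The share of miR-17-3p in the breeding trial was 15.2%, from 52 counts in all, and miR-25-5p was at 0 in 10 of 10 libraries. These strands also tell the loci apart. Over the virgin libraries, miR-19b-1-5p of chromosome 14 had 573 counts and miR-19b-2-5p of chromosome X had 6, or 1.04% of the pair. MiR-92a-1-5p had 114 counts and miR-92a-2-5p had 8, or 6.56% of the pair. Both chromosome X strands in the breeding trial were at 0 in 10 libraries and the chromosome 14 strands had 4 counts and 1 count.

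In virgin *Zeb1 200M* pituitary, against WT, the miR-19 members lay below WT replicates 2 and 4 but well above WT replicate 1. MiR-19b-3p, the most abundant member, reached 308, 2394 and 2688 CPM in WT replicates 1, 2 and 4 and 1905, 1926, 1882 and 1936 CPM in *Zeb1 200M*. The *Zeb1 200M* values lay close together, inside the range that the 3 WT libraries span, so the groups overlapped. MiR-19a-3p, with the same seed, reached 23.1, 254 and 305 CPM in WT and 208, 205, 205 and 210 CPM in *Zeb1 200M*, in the same arrangement. MiR-20a-5p, of the miR-17 family, reached 45.1, 209 and 250 CPM in WT and 212, 196, 187 and 171 CPM in *Zeb1 200M*. MiR-25-3p, from the other cluster, reached 755, 855 and 855 CPM in WT and 842, 937, 922 and 1126 CPM in *Zeb1 200M*. For this member 3 of 4 *Zeb1 200M* libraries lay above every WT library. Of 9 members 0 were without overlap between the groups, against 35.1% of all miRNAs tested.

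The test used on raw counts was the quasi-likelihood F test of edgeR, scaled by TMM, and a miRNA with a Benjamini-Hochberg adjusted p below 0.05 is called. Fold changes come from this fit and can differ from ratios of mean CPM. With all libraries, 0 of 9 members were called by edgeR and by DESeq2, and 0 had an unadjusted p below 0.05 in either, while edgeR called 44 of 678 miRNAs (6.49%, with 150 at an unadjusted p below 0.05). All 9 log2 fold changes were below 0 in edgeR, with a median of −0.14, against −0.0025 for all miRNAs tested, but this direction depended on the scaling and on single libraries. In mean CPM, 8 of 9 members were higher in *Zeb1 200M* than in WT, which rested on WT replicate 1. Without that library, each member except miR-25-3p had a lower mean CPM in *Zeb1 200M* than in WT. The 9 members then summed to 6628 CPM in WT, against 5760 CPM in *Zeb1 200M*. The median log2 fold change was 0.10 with the replicate number as a block, 0.014 without WT replicate 2 and 0.23 without WT replicate 4, with 5 of 9 members above 0 in each. MiR-19b-3p had a log2 fold change of −0.14, with a 95% interval of −1.21 to 0.93. In this edgeR fit of all 3 WT libraries, its interval was thus wide enough to hold a large change in either direction. Without WT replicate 1, edgeR called 168 of 703 miRNAs (23.9%) and 3 of 9 members, all lower in *Zeb1 200M*. MiR-19b-3p fell by 0.57 on the log2 scale (SE 0.0816, adjusted p = 0.000423 by edgeR's quasi-likelihood F test with Benjamini-Hochberg), lower in 4 of 4 *Zeb1 200M* libraries than in either WT library. MiR-19a-3p fell by 0.59 (SE 0.0935, adjusted p = 0.000875 by edgeR's quasi-likelihood F test with Benjamini-Hochberg), also lower in 4 of 4. MiR-20a-5p fell by 0.42 (SE 0.108, adjusted p = 0.0169 by edgeR's quasi-likelihood F test with Benjamini-Hochberg), lower than both WT libraries in 3 of 4. Over all the alternatives tried, the Benjamini-Hochberg adjusted p of miR-19b-3p, from edgeR, DESeq2 or limma, ranged from 0.000423 to 0.943, that of miR-19a-3p from 0.000875 to 0.961 and that of miR-20a-5p from 0.0169 to 0.980. The other 6 members were not called without this library, and their log2 fold changes ranged from −0.35 for miR-92a-3p to 0.0037 for miR-25-3p. In CPM, 2 of 9 members, both of the miR-19 family, then did not overlap between the groups, both lower. Of all miRNAs tested 49.1% did not overlap, with 11.8% lower and the rest higher. With all 3 WT libraries but weights that count a deviating library less (limma voom), 184 of 678 miRNAs (27.1%) and 5 of 9 members were called, all lower: miR-19a-3p, miR-19b-3p, miR-20a-5p, miR-92a-3p and miR-106b-5p. The members called lower, 3 of 9 and 5 of 9, stand beside 10.5% and 12.8% of all miRNAs tested called lower.

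In virgin *Zeb1 200H* pituitary, whose comparison shares the WT libraries with the one above, the miR-19 members again lay between WT replicate 1 and the other WT libraries. MiR-19b-3p reached 2012, 2052, 1852 and 1965 CPM, and miR-19a-3p reached 218, 250, 206 and 210 CPM. All 4 libraries lay below WT replicates 2 and 4 and above WT replicate 1 for both. MiR-106b-5p, the leading member of its cluster, reached 607, 1197 and 1363 CPM in WT replicates 1, 2 and 4 and 1070, 1183, 1079 and 1108 CPM in *Zeb1 200H*, again between WT replicate 1 and the others. MiR-25-3p, at 908, 997, 976 and 885 CPM, was the only 1 of 9 members whose groups did not overlap with all libraries, since each value lay above the 755 to 855 CPM of WT. Among all miRNAs tested, 33.2% did not overlap, with 28.4% higher. After TMM normalization, which raises WT replicate 1, its log2 fold change was −0.17 (95% interval −0.53 to 0.20), so its direction depends on the scaling.

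With all libraries, 0 of 9 members were called by edgeR, with 0 at an unadjusted p below 0.05, and 0 by DESeq2, with 1 at an unadjusted p below 0.05. EdgeR called 34 of 672 miRNAs (5.06%, with 131 at an unadjusted p below 0.05). The members' median log2 fold change was −0.039, against 0.0062 for all miRNAs tested, with 6 members below 0. In mean CPM, by contrast, 8 of 9 members were higher in *Zeb1 200H* than in WT, which again rested on WT replicate 1. Without that library, each member except miR-25-3p had a lower mean CPM in *Zeb1 200H* than in WT. The 9 members then summed to 6628 CPM in WT, against 5755 CPM in *Zeb1 200H*. The median was 0.080 with the replicate number as a block, 0.0058 without WT replicate 2 and 0.29 without WT replicate 4, with 5 of 9 members above 0 in each, and −0.26 by limma voom, with 9 of 9 below 0. Without WT replicate 1, edgeR called 151 of 699 miRNAs (21.6%, with 77, or 11%, lower) and 5 of 9 members, all lower in *Zeb1 200H*. MiR-19b-3p fell by 0.49 on the log2 scale (SE 0.0706, adjusted p = 0.000223 by edgeR's quasi-likelihood F test with Benjamini-Hochberg), and miR-106b-5p fell by 0.33 (SE 0.0731, adjusted p = 0.00533), each lower in 4 of 4 *Zeb1 200H* libraries than in either WT library. MiR-19a-3p fell by 0.47 (SE 0.0938, adjusted p = 0.00296 by edgeR's quasi-likelihood F test with Benjamini-Hochberg), lower in 4 of 4. MiR-92a-3p and miR-17-5p were the other calls, with log2 fold changes of −0.32 and −0.31, and the adjusted p of miR-17-5p in edgeR's quasi-likelihood test with Benjamini-Hochberg, 0.04998, lay at the threshold. Over the alternatives tried, the Benjamini-Hochberg adjusted p of miR-19b-3p, from edgeR, DESeq2 or limma, ranged from 0.000223 to 0.993, that of miR-106b-5p from 0.00533 to 0.754, that of miR-19a-3p from 0.00296 to 0.999 and that of miR-17-5p from 0.04998 to 0.995. MiR-25-3p had a log2 fold change of 0.010 without WT replicate 1. In CPM, miR-19a-3p, miR-19b-3p and miR-106b-5p were then lower than both WT libraries in each *Zeb1 200H* library, and miR-25-3p higher, so that 4 of 9 members were without overlap, 3 lower and 1 higher. Of all miRNAs tested 45.2% did not overlap, with 11.3% lower and 33.9% higher. Limma voom with all WT libraries called 152 of 672 miRNAs (22.6%, with 10.3% lower) and 3 of 9 members, miR-19b-3p, miR-92a-3p and miR-106b-5p, all lower.

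Between virgin *Zeb1 200M* and *Zeb1 200H*, which needs no WT library, the members differed little. MiR-19b-3p averaged 1913 ± 24.1 CPM in *Zeb1 200M* (SD, n = 4) and 1970 ± 86.6 CPM in *Zeb1 200H* (SD, n = 4). The log2 fold changes of the 9 members ranged from −0.17 for miR-20a-5p to 0.037 for miR-106b-5p, with a median of −0.059, against −0.011 for all miRNAs. The 95% interval was −0.22 to 0.026 for miR-19b-3p and −0.35 to 0.0043 for miR-20a-5p. Of 9 members 0 were called by edgeR and by DESeq2, with 0 at an unadjusted p below 0.05 in either, while edgeR called 15 of 675 miRNAs (2.22%, with 63 at an unadjusted p below 0.05). All 9 members overlapped in CPM between these groups, where 7.85% of all miRNAs tested did not.

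In the breeding trial, *Zeb1 200M* pituitary differed from WT in many miRNAs, and 0 members passed the threshold in edgeR. The paper reports that most homozygous females of this trial had no litters, and that homozygotes had fewer litters than the other genotypes. Litter history can therefore differ between the genotypes compared here, and its part in the differences was not tested. In mean CPM, 5 of 9 members were lower in *Zeb1 200M*. MiR-19b-3p reached 1922, 2449, 1332 and 1466 CPM in WT replicates 1 to 4 and 1483, 1578 and 1783 CPM in *Zeb1 200M*. The WT values spread over a wider range, on both sides of the *Zeb1 200M* values. MiR-106b-5p reached 1294, 1527, 1296 and 1044 CPM in WT and 1369, 1135 and 1050 CPM in *Zeb1 200M*, and miR-92a-3p reached 531, 614, 583 and 386 CPM in WT and 365, 499 and 505 CPM in *Zeb1 200M*. Both overlapped, as did all 9 members, while 42.4% of all miRNAs tested did not. MiR-20a-5p reached 233, 219, 238 and 172 CPM in WT and 331, 217 and 350 CPM in *Zeb1 200M*. Here 2 of 3 *Zeb1 200M* libraries lay above every WT library.

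EdgeR called 99 of 276 miRNAs (35.9%, with 123 at an unadjusted p below 0.05) but 0 of the 8 members tested, with 3 at an unadjusted p below 0.05, and DESeq2 also called 0 members, with 2 at an unadjusted p below 0.05. MiR-18a-5p was below the filter on low counts. MiR-19b-3p had a log2 fold change of −0.38 (SE 0.153, adjusted p = 0.0563 by edgeR's quasi-likelihood F test with Benjamini-Hochberg) and was lower than the WT median in 2 of 3 *Zeb1 200M* libraries. MiR-106b-5p had a log2 fold change of −0.35 (SE 0.143, adjusted p = 0.0565 by edgeR's quasi-likelihood F test with Benjamini-Hochberg), also lower in 2 of 3, and miR-92a-3p had −0.39 (SE 0.189). The median of the 8 members was −0.29, against 0.0014 for all miRNAs, and 7 of 8 were below 0. These values sat at the threshold, and small changes in processing moved members across it. With DESeq2's size factors in edgeR, with no filter on low counts and with limma voom, miR-19b-3p and miR-106b-5p were called lower, when 37.3%, 13.3% and 38.8% of all miRNAs tested were called, with 17.8%, 6.77% and 17.8% lower. With no filter all 9 members were tested. With the replicate number as a block, miR-92a-3p and miR-106b-5p were called lower, and 31.5% of all, with 15.9% lower. Without WT replicate 4, the WT library with the lowest miR-106b-5p and miR-92a-3p, 3 members were called (miR-19b-3p, miR-92a-3p and miR-106b-5p, beside 36.3% of all), each lower, as were 17.0% of all. Without WT replicate 3 miR-19b-3p was called lower (34.9% of all called, 16.2% lower) and without *Zeb1 200M* replicate 1 miR-106b-5p was called lower (27.1% of all called, 13.2% lower). The adjusted p of miR-19b-3p, from edgeR, DESeq2 or limma with Benjamini-Hochberg, ranged from 0.00969 to 0.271 over the alternatives and that of miR-106b-5p from 0.0180 to 0.309.

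Breeding trial *Zeb1 200H* pituitary, compared with the same 4 WT libraries, gave the lowest fold change of any member. MiR-19a-3p reached 207, 272, 107 and 141 CPM in WT replicates 1 to 4, from 32, 31, 9 and 27 counts. It reached 109, 66.6 and 129 CPM in *Zeb1 200H*, from 12, 4 and 17 counts. The *Zeb1 200H* values lay at or below the lower WT values, and the groups overlapped through WT replicate 3. MiR-19b-3p reached 1209, 1532 and 1652 CPM in *Zeb1 200H*, also overlapping with WT. MiR-20a-5p reached 345, 267 and 267 CPM in *Zeb1 200H* against 172 to 238 CPM in WT, and was the only 1 of 9 members whose groups did not overlap, against 29.6% of all miRNAs tested, with 23.6% higher.

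EdgeR called 32 of 267 miRNAs (12.0%, with 73 at an unadjusted p below 0.05) and 0 of the 8 members tested, with 2 at an unadjusted p below 0.05, and DESeq2 called 0 members, also with 2 at an unadjusted p below 0.05. MiR-19a-3p had a log2 fold change of −0.92 (SE 0.337, adjusted p = 0.0809 by edgeR's quasi-likelihood F test with Benjamini-Hochberg), and 3 of 3 *Zeb1 200H* libraries lay below the WT median. MiR-19b-3p had −0.46 (SE 0.182, adjusted p = 0.101 by edgeR's quasi-likelihood F test with Benjamini-Hochberg), also with 3 of 3 below the WT median. MiR-20a-5p had 0.30, with a 95% interval of −0.18 to 0.79. The median of the 8 members was −0.18, against 0.0041 for all miRNAs, and 7 of 8 were below 0, while in mean CPM 5 of 9 members were lower. Here libraries of the same replicate number resembled each other in all 3 pairs, and a fit with the number as a block called 47 miRNAs and 0 members. Without WT replicate 3, whose miR-19a-3p was lowest in WT, miR-19a-3p and miR-19b-3p were called lower, beside 12.0% of all miRNAs called and 8.03% called lower. Without WT replicate 4 miR-19a-3p was called lower (10.9% of all called, 7.89% lower), and with no filter on low counts miR-19b-3p was called lower (4.64% of all called, 3.19% lower). Over the alternatives, the Benjamini-Hochberg adjusted p from edgeR, DESeq2 or limma ranged from 0.0205 to 0.366 for miR-19a-3p and from 0.00995 to 0.391 for miR-19b-3p.

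Between the mutant groups of the breeding trial, miR-19b-3p averaged 1615 ± 153 CPM in *Zeb1 200M* (SD, n = 3) and 1465 ± 229 CPM in *Zeb1 200H* (SD, n = 3). The members' log2 fold changes ranged from −0.21 for miR-106b-5p to 0.44 for miR-19a-3p, with a median of 0.051, against 0.016 for all miRNAs, and all 9 overlapped in CPM, where 18.6% of all miRNAs tested did not. Of the 8 members tested, 0 were called by edgeR and by DESeq2, with 0 at an unadjusted p below 0.05 in either, and edgeR called 3 of 274 miRNAs (1.09%, with 40 at an unadjusted p below 0.05).

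**Figure D3:**
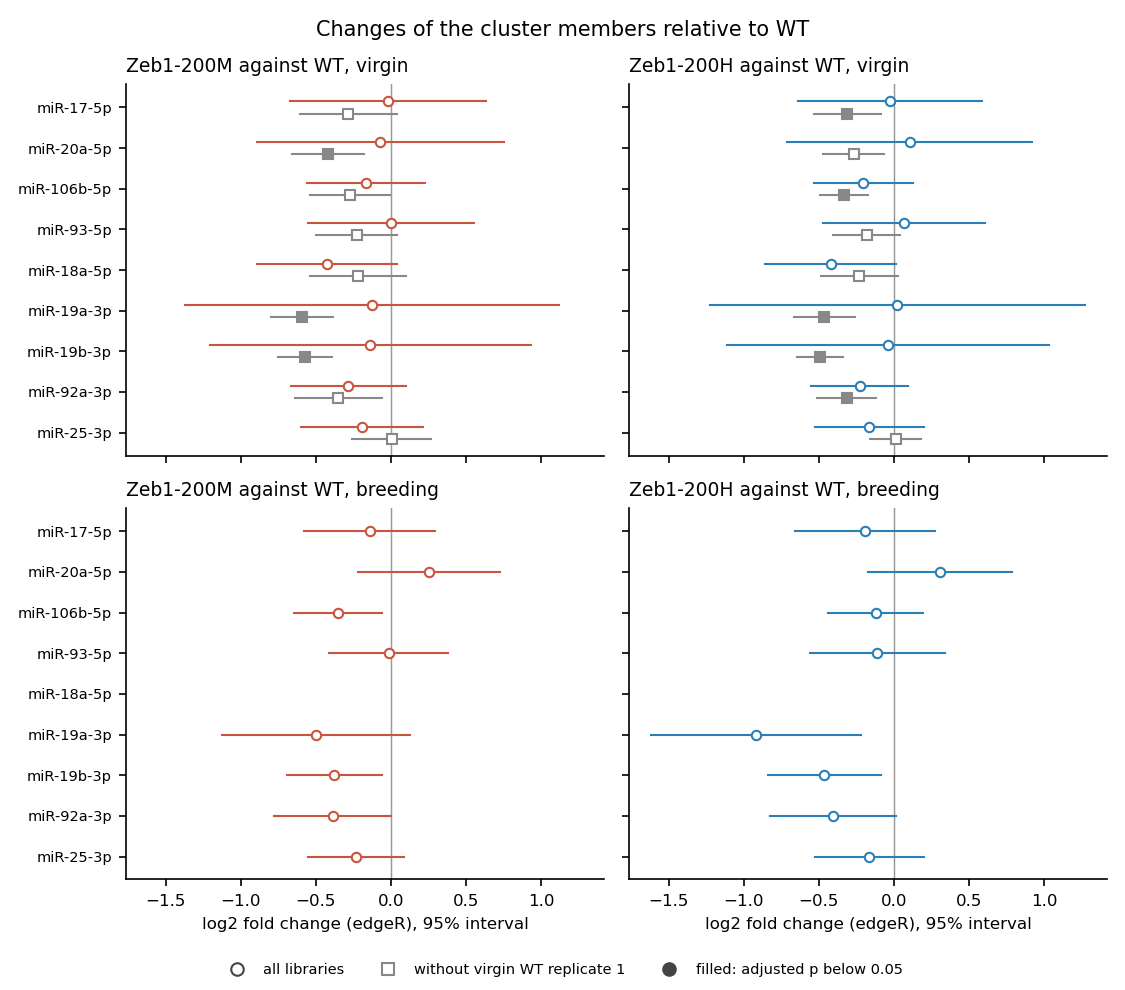
Log2 fold change of each member against WT from edgeR, with its 95% interval, for *Zeb1 200M* (left) and *Zeb1 200H* (right) in virgin (top) and breeding trial (bottom) females. Circles use all libraries, squares leave out virgin WT replicate 1, and filled symbols have an adjusted p below 0.05. With all libraries 0 members are filled, without virgin WT replicate 1 they are 3 for *Zeb1 200M* and 5 for *Zeb1 200H*, and miR-18a-5p was not tested in the breeding trial.

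Whether the effect of the alleles on the members differed between the cohorts was tested as a difference of log2 fold changes, breeding trial minus virgin. The cohorts also differ in age, breeding history, amount of RNA, adapters (by the labels), sequencer and number of bases matched, and these cannot be told apart from one another. Within the breeding trial, litter history can also differ between homozygotes and the other genotypes. For *Zeb1 200M* against WT, edgeR called 0 of 485 miRNAs (0%, with 27 at an unadjusted p below 0.05) and 0 of 9 members (0 at an unadjusted p below 0.05), and DESeq2 called 0 miRNAs. For *Zeb1 200H* against WT, edgeR called 0 of 489 miRNAs (0%, with 23 at an unadjusted p below 0.05) and 0 of 9 members (0 at an unadjusted p below 0.05), and DESeq2 again called 0. With no filter on low counts, edgeR called 5 of 1241 miRNAs (0.403%) for *Zeb1 200M* and 2 of 1258 (0.159%) for *Zeb1 200H*, and 0 of 9 members in either. The difference for miR-19b-3p was −0.33 (95% interval −1.45 to 0.79) for *Zeb1 200M* and −0.42 (−1.52 to 0.69) for *Zeb1 200H*. Without virgin WT replicate 1 these were 0.20 (−0.22 to 0.63) and 0.021 (−0.42 to 0.46). Without that library the difference for miR-20a-5p was 0.68 (95% interval 0.19 to 1.17) for *Zeb1 200M* and 0.57 (0.10 to 1.03) for *Zeb1 200H*. It had an unadjusted p below 0.05 in both, and its adjusted p by edgeR's quasi-likelihood test with Benjamini-Hochberg was 0.303 and 0.649, the lowest over all the alternatives tried, where the highest was 1 in both.

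The other strands and the relatives of the members were followed to see whether a difference extended over a hairpin or a seed family. In both virgin comparisons with WT, 8 of 9 other strands were tested and 0 called by edgeR with all libraries. Without WT replicate 1, 2 of 8 fell in *Zeb1 200M*, miR-17-3p (log2 fold change −0.54, SE 0.111) and miR-106b-3p (−0.47, SE 0.0932), and 3 of 8 fell in *Zeb1 200H*, miR-17-3p (−0.51, SE 0.0947), miR-106b-3p (−0.41, SE 0.0992) and miR-19b-1-5p (−0.73, SE 0.208). These fits called 74 of 703 (10.5%) and 77 of 699 (11%) of all miRNAs tested lower. Differences between the strands of a hairpin were not tested. Only 1 of 9 other strands, miR-106b-3p, was tested in the breeding trial, and it was not called. Of the 6 miRNAs of miR-106a-363, 3 were tested in the virgin comparisons and 0 called, with or without WT replicate 1, and 0 were tested in the breeding trial. MiR-106a-5p had 1, 91 and 63 counts in virgin WT replicates 1, 2 and 4.

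MiR-92b-3p, which shares its seed with miR-92a-3p and miR-25-3p, reached 354, 668 and 747 CPM in virgin WT replicates 1, 2 and 4, from 800 to 883 CPM in *Zeb1 200H* and from 817 to 902 CPM in *Zeb1 200M*. It lay above every WT library in all 8 virgin mutant libraries. Of all miRNAs tested, 30.5% lay above WT without overlap in virgin *Zeb1 200M* and 28.4% in virgin *Zeb1 200H*. MiR-92b-3p was not called in any comparison with WT, with log2 fold changes of 0.18 in virgin *Zeb1 200M* and 0.20 in virgin *Zeb1 200H*. MiR-32-5p has the same seed and no place in either cluster. It reached 298, 211, 190 and 183 CPM in breeding trial WT and 148, 129 and 163 CPM in *Zeb1 200M*, without overlap. Of all miRNAs tested there, 42.4% did not overlap, with 9.06% lower. In this comparison miR-32-5p fell by 0.83 on the log2 scale (SE 0.265, adjusted p = 0.0169 by edgeR's quasi-likelihood F test with Benjamini-Hochberg), lower in 3 of 3 libraries. In the virgin cohort it was not called with all libraries and fell when WT replicate 1 was left out, by 0.65 in *Zeb1 200M* (SE 0.0900) and by 0.47 in *Zeb1 200H* (SE 0.0854). Breeding trial *Zeb1 200H* libraries held 273, 217 and 213 CPM, within the range of WT, and miR-32-5p was not called there. Differences between miRNAs with the miR-25/92 seed were not tested.

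Some miRNAs known from particular cell types were called between genotypes beside these values and others were not. The part of cell types in the members' differences was not tested. Beside the counts that follow, edgeR called 3.83% of all miRNAs tested lower and 2.65% higher in virgin *Zeb1 200M* against WT, and 3.42% and 1.64% in virgin *Zeb1 200H*. When WT replicate 1 was left out, the shares called higher were 13.4% and 10.6%. Among breeding trial females 15.6% were called lower and 20.3% higher in *Zeb1 200M*, and 7.12% and 4.87% in *Zeb1 200H*. Lists of 2 to 8 names are too short to read a share from. The pituitary list (miR-7, miR-375 and the miR-200 superfamily, 8 names) marks the labelled tissue. It was led by miR-7a-5p in each virgin library and had 0 names at 0. Its summed level was 437745, 325207 and 328495 CPM in virgin WT replicates 1, 2 and 4, from 264772 to 291587 CPM in *Zeb1 200H* and from 238785 to 287092 CPM in *Zeb1 200M*. EdgeR called 5 of its 8 names lower in both virgin comparisons, all 5 of the miR-200 superfamily, whose sites the *Zeb1* alleles lack, 6 in both without WT replicate 1, and 7 and 6 of 8 in the breeding trial, in *Zeb1 200M* and *Zeb1 200H*. Between *Zeb1 200M* and *Zeb1 200H*, 5 of 8 were called lower in virgin and 2 of 8 in breeding trial *Zeb1 200M*. In the breeding trial it summed to 363384 ± 13683 CPM in WT (SD, n = 4), 287284 ± 12963 CPM in *Zeb1 200H* (SD, n = 3) and 260959 ± 7198 CPM in *Zeb1 200M* (SD, n = 3).

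Neuronal names (5 in the virgin tables, led by miR-124-3p in mutants) summed to 1301, 2581 and 2867 CPM in virgin WT replicates 1, 2 and 4, to 5858 ± 260 CPM in *Zeb1 200H* (SD, n = 4) and to 8026 ± 1326 CPM in *Zeb1 200M* (SD, n = 4). Both names of miR-124-3p were called higher in both virgin comparisons, 2 of 5, and without WT replicate 1 miR-9-5p was called too, 3 of 5 in both. In the breeding trial the list summed to 3173 ± 306 CPM in WT (SD, n = 4), 7075 ± 776 CPM in *Zeb1 200H* (SD, n = 3) and 11069 ± 303 CPM in *Zeb1 200M* (SD, n = 3), and 2 and 1 of 4 names were called higher in *Zeb1 200M* and *Zeb1 200H*. Against *Zeb1 200H*, 2 of 5 neuronal names were called higher in virgin *Zeb1 200M* and 1 of 4 in the breeding trial. Apart from the neuronal and pituitary lists, 0 names were called between the mutants, with skeletal muscle names not tested in the breeding trial. MiR-17-92 is active in dividing blood precursors, so blood miRNAs were read beside it. Red blood cell names, led by miR-451a, had 0 of 4 called in the virgin comparisons, with or without WT replicate 1, and summed to 7607 ± 2248 CPM in WT (SD, n = 3), 12105 ± 4585 CPM in *Zeb1 200H* (SD, n = 4) and 10097 ± 820 CPM in *Zeb1 200M* (SD, n = 4). White blood cell names, led by miR-142-3p, had 0 of 6 called with all libraries, and summed to 1068 ± 236, 1501 ± 263 and 1493 ± 165 CPM in the same order. Leaving out WT replicate 1, edgeR called miR-150-5p higher in *Zeb1 200M* (1 of 6), and miR-150-5p and miR-223-3p in *Zeb1 200H* (2 of 6). In breeding trial *Zeb1 200M*, 1 of 2 tested red and 2 of 4 tested white blood cell names were called higher, and in *Zeb1 200H* 0 were called. MiR-155-5p was at 0 in WT replicate 4 and *Zeb1 200M* replicates 2 and 3. The white blood cell list summed in that cohort to 799 ± 169 CPM in WT (SD, n = 4), 1103 ± 105 CPM in *Zeb1 200H* (SD, n = 3) and 1664 ± 227 CPM in *Zeb1 200M* (SD, n = 3), and the red blood cell list to 6518 ± 1235, 7613 ± 1009 and 8683 ± 1935 CPM.

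Endothelial names, led by miR-126a-3p, had 0 of 3 called in the virgin comparisons, with or without WT replicate 1, and summed to 5840 ± 485 CPM in WT (SD, n = 3), 6979 ± 368 CPM in *Zeb1 200H* (SD, n = 4) and 7304 ± 230 CPM in *Zeb1 200M* (SD, n = 4). In the breeding trial they summed to 6428 ± 144, 8803 ± 561 and 9425 ± 592 CPM, and 2 of 2 were called higher in *Zeb1 200M* and 0 in *Zeb1 200H*. Smooth muscle and fibroblast names, led by miR-143-3p or miR-145a-5p, summed to 2459 ± 334, 3492 ± 723 and 4043 ± 1095 CPM in virgin WT, *Zeb1 200H* and *Zeb1 200M*, where 1 of 4 was called higher in *Zeb1 200M* and 0 in *Zeb1 200H*. These counts became 2 (miR-145a-5p and miR-199a/b-3p) and 1 (miR-145a-5p) when WT replicate 1 was left out. In the breeding trial they summed to 3916 ± 179, 4837 ± 355 and 5900 ± 356 CPM, and 2 of 3 were called higher in *Zeb1 200M* and 0 of 2 tested in *Zeb1 200H*. Skeletal muscle names were near 0, with 12.2 ± 5.25 CPM in virgin WT (SD, n = 3), 34.7 ± 17.6 CPM in *Zeb1 200H* (SD, n = 4), 55.2 ± 33.1 CPM in *Zeb1 200M* (SD, n = 4) and 16.0 ± 15.1, 18.7 ± 10.8 and 3.80 ± 6.59 CPM in the breeding trial, where miR-206-3p was at 0 in each WT and *Zeb1 200M* library. Of these names 0 were called in the virgin comparisons with all libraries. With WT replicate 1 left out, 3 of 4 were called higher in *Zeb1 200M* (miR-133a-3p.1, miR-1a-3p and miR-206-3p) and 1 of 3 tested in *Zeb1 200H* (miR-1a-3p), and in the breeding trial 0 of 2 names were tested.

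Outside the members and their relatives, the miRNAs whose level was most like that of miR-19b-3p over the virgin libraries depended on WT replicate 1. This is a description over 11 libraries that differ in genotype and depth, whose part in these correlations was not tested. The 682 miRNAs ranked leave out the members, their other strands, miR-106a-363, miR-92b-3p and other miRNAs with a member's seed. How closely the members followed each other was thus not ranked. Levels were log2 CPM scaled by TMM. MiR-210-3p (Pearson's r 0.969), miR-1839-5p (0.966) and miR-409-5p (0.966) were most like miR-19b-3p. Without WT replicate 1, over 10 libraries, miR-96-5p (0.988), miR-182-5p (0.988) and miR-200a-3p (0.979) led, and miR-210-3p was in place 46 with 0.857. For miR-106b-5p the closest were miR-409-3p (0.798), miR-148a-5p (0.741) and miR-181c-3p (0.737) over 11 libraries, and miR-672-5p (0.920), miR-99b-5p (0.909) and miR-673-5p (0.894) over 10.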

How the data were processed

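The deposited tables hold counts per miRNA and library for 21 libraries, made by the authors with cutadapt, a quality filter and a match of the first 19 (virgin, with no mismatch allowed) or 18 (breeding trial) bases to known miRNAs, without a genome. Reads of size standards and spike-ins were removed by the authors. Each library is held in 2 of the 6 tables, and 0 libraries differed between their copies. The 42 per-sample columns of size-factor scaled values and the authors' fold changes, test statistics and p values were not used here. The submitters' processing notes name DESeq2 1.38.3 for the virgin libraries.

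CPM used all counted reads of a library. Raw counts were compared per pair of genotypes within a cohort in R 4.3.3 with edgeR 4.0.16 (TMM, filter with minimum count 10 and minimum total count 15, quasi-likelihood F test), and p values were adjusted by Benjamini-Hochberg over the whole list of tested miRNAs (threshold 0.05). Standard errors came from the F statistic, and 95% intervals from the t distribution. Counting intervals are Wilson intervals from SciPy 1.17.1 in Python 3.11.15, and a count of 0 allows 3 counts. The alternatives were DESeq2 1.42.0, its size factors in edgeR, no filter on low counts, a fit of all 3 genotypes at once, TMM computed without miR-200 superfamily miRNAs, limma 3.58.1 voom weighted by sample quality, a block for the replicate number, TMM-scaled CPM for levels and each library left out in turn. Libraries of the same replicate number, after removal of group means, correlated at 0.100 to 0.190 in all 3 pairs of breeding trial *Zeb1 200H* and WT, and not in each pair of any other comparison, so the block is given in the report for that comparison and where it changed a call.

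The 9 members were found by name (prefix and numbered suffix removed), and the named miRNAs were the members, their other strands, miR-106a-363, miR-92b-3p and other miRNAs with a member's seed. Members and lists were chosen with earlier results of these data known. Hairpin positions are from RefSeq and host genes from GENCODE, both GRCm38. Red blood cell, fibroblast and muscle markers spelled otherwise in the breeding trial tables were not used there. Groups without overlap are those where every CPM of 1 group lies above every CPM of the other, and the share over all miRNAs is taken over those tested with all libraries in that comparison, also when WT replicate 1 is left out.

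Limits: the virgin comparisons with WT rest on 3 WT libraries, of which 1 stands apart, or on 2 without it. In the breeding trial miR-18a-5p and miR-19a-3p rest on few counts. Whole pituitary was measured, so cell types cannot be told apart, and marker lists were read without a test of their part. Cohorts differ in age and in how libraries were made. In the breeding trial, homozygotes can also differ from the other genotypes in litter history, which was not tested. CPM are relative to all counted miRNAs, and spike-in counts were not used here. Matching from the first base misses reads with an altered 5′ end. Targets of the members, the host transcripts and cell proliferation were not analysed here.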

Additional observations from a re-analysis of the deposited data

Results flagged for a closer look

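MiR-93-5p reached 437 CPM in virgin *Zeb1 200H* replicate 2, against 361 to 370 CPM in the other 3 libraries of the group. Its gap to the nearest of them was 0.883 of the range of the group, past Dixon's critical value for 4 samples. This was 1 of 27 groups of member values tested, all of 4 libraries, and chance alone gives about 1 in 20. Groups of 3 libraries, virgin WT with its replicate 1 among them, were not tested in this way.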

How the results depend on the processing

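Of the alternative values for levels, 191 were the same within 1 SD and 17 moved, all with TMM-scaled CPM. The 9 members then summed to 5880 CPM in virgin WT, 5449 CPM in virgin *Zeb1 200H* and 5288 CPM in virgin *Zeb1 200M*, against 5212, 5755 and 5760 CPM without TMM. The scaling thus reversed the direction between WT and the mutants, and so did leaving out virgin WT replicate 1. Without that library and without TMM, the 9 members summed to 6628 CPM in virgin WT. Of the member fold changes 401 were the same, 32 stronger and 43 reversed. Of the counts of members called 106 were the same and 14 were higher, all 84 values of the members' median were within their spread, and of the counts of miRNAs called 62 were the same, 11 higher and 11 lower. The spread of the median, 0.38 and 0.35 in virgin *Zeb1 200M* and *Zeb1 200H* against WT, is wide enough to hold both directions. The median changed sign there, from −0.33 to 0.23 and from −0.31 to 0.29, and with a library left out also between the mutants, from −0.12 to 0.0068 (virgin) and from −0.039 to 0.14 (breeding trial). The cause was not tested.

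In virgin *Zeb1 200M* against WT, 44 miRNAs were called by edgeR, 87 by DESeq2, 90 with a common fit, 184 by limma voom and 20 with the replicate block, and 25 to 168 with a library left out. Members called were 5 by limma voom and 0 to 3 with a library left out. Log2 fold changes reversed with no filter for miR-17-5p (0.027) and miR-93-5p (0.049), and with the block for miR-17-5p (0.13), miR-19a-3p (0.28), miR-19b-3p (0.18), miR-20a-5p (0.11) and miR-93-5p (0.10). With a library left out they ranged from −0.29 to 0.31 for miR-17-5p, −0.59 to 0.31 for miR-19a-3p, −0.57 to 0.23 for miR-19b-3p, −0.42 to 0.26 for miR-20a-5p, −0.23 to 0.27 for miR-93-5p and −0.30 to 0.0037 for miR-25-3p.

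In virgin *Zeb1 200H* against WT, 34 miRNAs were called by edgeR, 66 by DESeq2, 67 with a common fit, 152 by limma voom and 18 with the block, and 21 to 151 with a library left out. Members called were 3 by limma voom and 0 to 5 with a library left out. Reversed were miR-17-5p (0.080) and miR-19b-3p (0.28) with the block, miR-19a-3p by DESeq2 (−0.00038), with its size factors (−0.011) and by limma voom (−0.41), and miR-20a-5p (−0.24) and miR-93-5p (−0.15) by limma voom. With a library left out they ranged from −0.31 to 0.29 for miR-17-5p, −0.47 to 0.45 for miR-19a-3p, −0.49 to 0.32 for miR-19b-3p, −0.27 to 0.43 for miR-20a-5p, −0.18 to 0.33 for miR-93-5p and −0.25 to 0.010 for miR-25-3p. Between the virgin mutants a common fit called 5 miRNAs, against 15.

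In breeding trial *Zeb1 200M* against WT, 2 members were called with DESeq2's size factors, 2 with no filter, 2 by limma voom, 2 with the block and 0 to 3 with a library left out. MiR-93-5p reversed with TMM without the miR-200 superfamily (0.011) and ranged from −0.14 to 0.15 with a library left out. In *Zeb1 200H* against WT, 1 member was called with no filter and 0 to 2 with a library left out, and miR-93-5p ranged from −0.29 to 0.046. Between the mutants 3 miRNAs were called by edgeR, 5 by limma voom, 5 with the block and 3 to 5 with a library left out.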
